A study of Mus musculus with 6 samples.

Results

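The genes described here are 56 genes of the cell cycle and of mitosis, taken by symbol from the 55385 genes listed for each library. They are 2 proliferation markers, 8 cyclins and kinases of G1 and S phase, 7 mitotic cyclins with Cdk1 and its Cdc25 phosphatases, 12 replication genes, 4 transcription factors, 10 mitotic kinases and checkpoint genes, 8 centromere proteins and spindle motors, and 5 inhibitors. RNA was sequenced from mammary tumors of female NeuT/ATTAC mice, 3 labelled control and 3 labelled DMHCA. These mice carry a constitutively active rat ErbB2 driven by the MMTV promoter, and an FKBPv-caspase-8 fusion driven by the FABP4 promoter, which acts in fat cells. AP20187 joins the fusion protein into active dimers, which removes part of the mammary fat and leaves fibrotic tissue in its place. Per the series' design, injections of AP20187 (0.4 mg/kg) began at week 6 of age. DMHCA, an oxysterol agonist of the liver X receptors, made up 0.05% of the diet from week 8, or about 100 mg/kg. The treatment label of the controls reads "AP20187 Vehicle", and the study's text describes the tumors of both groups as coming from mice given AP20187. The labels name the tissue as mammary gland fibrosis, while the study's text describes tumors.

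Libraries held 46358654 to 63420620 expected counts. DMHCA libraries 1 and 3 were near copies: their biological coefficient of variation was 0.0326, against 0.374 to 0.573 in the other 5 pairs within a group, and the 56 genes differed between them by a median of 0.0533 and at most 0.259 on the log2 scale of TPM. They were summed and counted as 1 sample (DMHCA 1+3), which leaves 3 control and 2 DMHCA samples. The study's text gives separate mice for all 6 libraries, and whether this pair came from 1 tumor cannot be told from the labels. All 9 epithelial markers, Epcam, Krt8 and Erbb2 among them, were detected in every library, with a summed TPM of 3506 to 5441.

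A dividing cell passes from G1 through S phase, in which DNA is copied, to G2 and mitosis. D-type cyclins with Cdk4 or Cdk6, and then E-type cyclins with Cdk2, phosphorylate the retinoblastoma protein Rb1 and free E2F factors, which turn on genes for DNA synthesis. Later in the cycle FoxM1 and B-Myb act with the MuvB proteins on genes of mitosis, and cyclin B with Cdk1 drives the cell into division. In tumors driven by ErbB2, the D-cyclin step is a known point at which growth signals enter the cycle.

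The promoters of many of these genes hold short motifs that are described for cell cycle regulation: CCAAT, bound by NF-Y, the cell cycle homology region (CHR) TTTGAA, bound by MuvB proteins, and the E2F cores TTTGGCG and TTTCGCG. They were searched on both strands in RefSeq promoter windows (GRCm38.p6) of 250 bases before to 50 bases after each start. Of the 56 genes 45 had a window, 51 windows in all, and 34 windows held CCAAT (66.7%, against 37.4% of all 32851 windows), 16 held the CHR (31.4% against 17.9%) and 9 held an E2F core (17.6% against 2.37%). Among the 16445 windows of genes tested here the shares were 37.3%, 13.1% and 3.59%. The CHR stood in 5 of 6 windows of centromere and motor genes, and an E2F core stood in 5 of 12 windows of replication genes. Both CCAAT and CHR stood together in 15 member windows (29.4%, against 6.95% of all windows). The stretches below are those parts that lie outside annotated exons, from 6 of the 12 genes with an unadjusted p under 0.05 (Mki67, Stil, Plk1, Cdc20, Mcm2, Mcm5) and, for contrast, from Cdk1 and Ccnb2, whose groups overlapped. Capitals mark CCAAT, the CHR and the E2F cores, each as given above or as its reverse complement.
Mki67 (chr7:135716462-135716577, minus strand): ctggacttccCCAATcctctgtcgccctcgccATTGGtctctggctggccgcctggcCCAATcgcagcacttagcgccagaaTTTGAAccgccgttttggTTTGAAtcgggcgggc
Stil (chr4:114999868-115000117, plus strand): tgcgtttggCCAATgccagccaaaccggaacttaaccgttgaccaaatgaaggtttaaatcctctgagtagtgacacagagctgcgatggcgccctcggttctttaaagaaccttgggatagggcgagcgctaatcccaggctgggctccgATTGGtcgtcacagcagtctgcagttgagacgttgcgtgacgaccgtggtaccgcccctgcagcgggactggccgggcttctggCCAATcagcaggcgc
Plk1 (chr7:122159411-122159434, plus strand): atccccgcggCCAATcagcaacgc
Cdc20 (chr4:118437353-118437406, minus strand): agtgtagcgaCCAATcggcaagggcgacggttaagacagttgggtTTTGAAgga
Mcm2 (chr6:88898835-88898965, minus strand): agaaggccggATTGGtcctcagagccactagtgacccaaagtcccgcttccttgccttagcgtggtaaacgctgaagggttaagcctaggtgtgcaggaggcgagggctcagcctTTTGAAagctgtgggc
Mcm5 (chr8:75109346-75109501, plus strand): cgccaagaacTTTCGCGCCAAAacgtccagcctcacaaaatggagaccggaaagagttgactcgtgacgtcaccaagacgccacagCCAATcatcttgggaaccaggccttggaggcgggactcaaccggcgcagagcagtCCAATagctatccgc
Cdk1 (chr10:69352946-69353130, minus strand): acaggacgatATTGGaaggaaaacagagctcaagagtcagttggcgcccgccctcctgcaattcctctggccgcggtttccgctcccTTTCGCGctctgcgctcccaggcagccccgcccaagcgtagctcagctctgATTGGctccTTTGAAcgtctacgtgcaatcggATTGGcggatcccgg
Ccnb2 (chr9:70421561-70421731, minus strand): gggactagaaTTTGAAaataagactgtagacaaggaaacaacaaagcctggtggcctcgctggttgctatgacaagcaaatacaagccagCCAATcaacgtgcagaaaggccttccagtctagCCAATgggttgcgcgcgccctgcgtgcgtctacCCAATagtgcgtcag
In Mcm5 the marked run is 2 overlapping E2F cores, TTTCGCG and, on the other strand, TTTGGCG. The stretches of Mki67, Cdc20, Mcm2, Cdk1 and Ccnb2 share CCAAT with the CHR, whether or not their groups overlapped. Stil has CCAAT on both strands and no TTTGAA in its window, and the Plk1 window has a TTTGAA outside the stretch shown. The windows of E2f1, Ccne1 and Cdc6 held none of these letters.

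As a group the cell cycle genes had higher mean levels in the DMHCA tumors, but 0 of them passed the test. All 56 passed the filter on low counts. At an adjusted p under 0.05 (edgeR's quasi-likelihood F-test, Benjamini-Hochberg over 19427 genes) 0 of the 56 were called, as were 0 of all genes (0.0%), and the smallest adjusted p among the 56 was 0.644. At an unadjusted p under 0.05 there were 12 genes higher and 0 lower, where 3.53% of all genes tested were higher and 4.08% lower. A fitted log2 fold change above 0 was found for 52 of 56, against 48.0% of all genes, and the median was 0.59, against -0.03 over all genes. In 26 genes both DMHCA samples lay above all 3 controls, and in 0 below, where 13.8% and 12.2% of all genes did so. In bulk tissue, a different number of dividing cells and a different amount of RNA of these genes in each cell cannot be told apart.

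**Figure D1:**
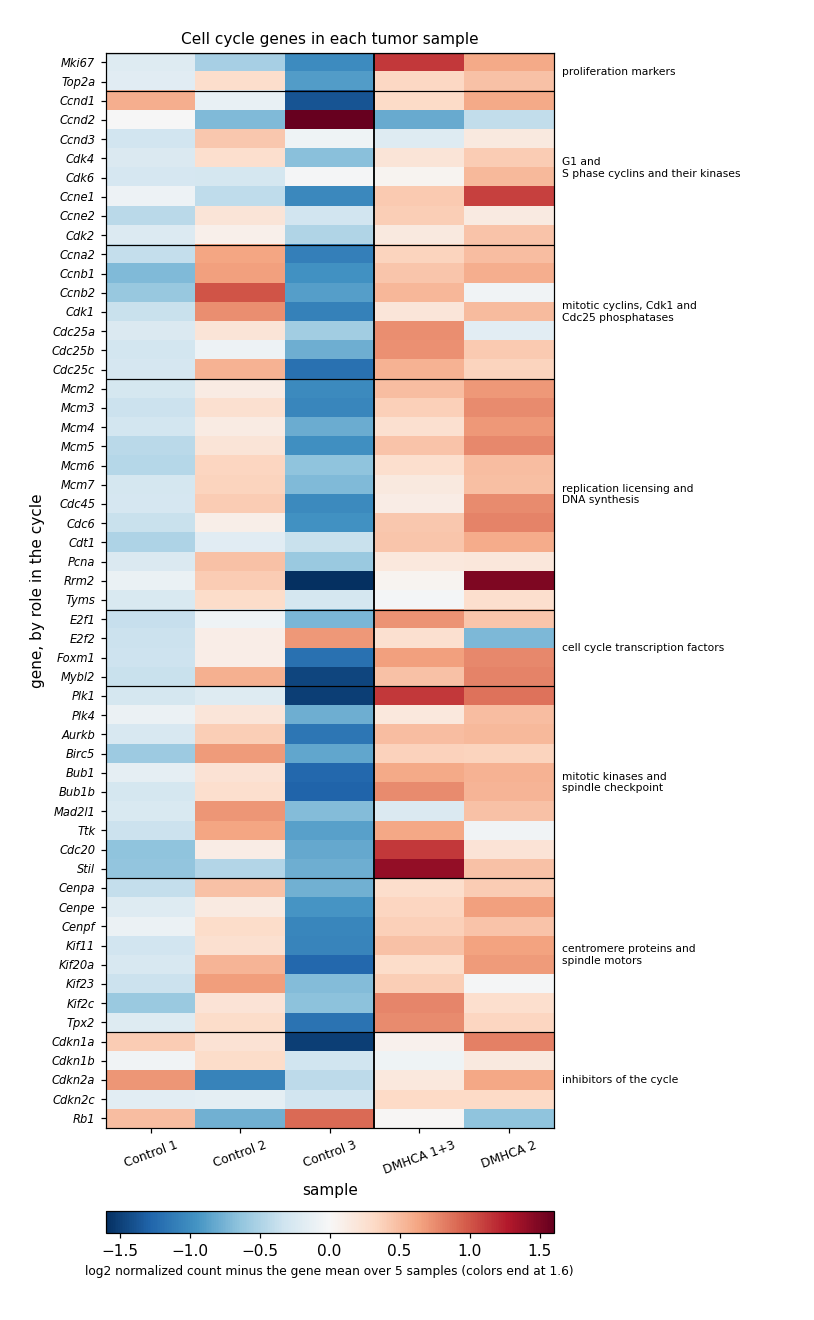
Each row is 1 of the 56 genes, ordered by role, and each column a sample. Color gives log2 normalized counts minus the gene's mean over the 5 samples. Control 3 is the lowest sample for 48 genes, and control 2 is the highest for 14.

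The controls were not alike for these genes. Normalized counts (TMM-scaled to the mean library size) of control 3 were the lowest of the 5 samples for 48 of 56 genes, against 26.0% of all genes tested, and those of DMHCA 2 the highest for 26, against 22.0%. Control 2 was the highest for 14 genes, 5 of them among the 7 mitotic cyclins, Cdk1 and Cdc25 genes. Relative to each gene's mean, the median of the 56 was -0.28 in control 1, 0.25 in control 2 and -0.85 in control 3, and 0.37 and 0.49 in DMHCA 1+3 and DMHCA 2 (log2). Control 2 lay above control 3 for 51 genes, and the median range over the controls was 1.21, against 0.85 for all genes tested. That range was larger than the absolute fold change for 46 of 56 genes.

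Markers of some other cell types, but not of all, moved with control 3. All 7 B cell and all 7 T cell markers were highest there. Their summed TPM was 39.2, 1.17 and 321 for B cells and 35.0, 4.39 and 350 for T cells in controls 1 to 3, against 2.17 to 2.29 and 6.44 to 11.4 in the DMHCA samples, and Pax5 was at 0 TPM in DMHCA 2. The 5 adipocyte markers were also all highest in control 3 and did not overlap between the groups, with sums of 203, 123 and 914 in the controls and 68.7 and 68.8 in the DMHCA samples. The summed TPM of the 56 cell cycle genes was 1871, 2023 and 1184 in the controls and 2516 and 3142 in the DMHCA samples, and the part of these cell types in that was not tested. The epithelial sum did not overlap, at 3506 to 4739 in the controls and 5292 and 5441 in the DMHCA samples, but its 9 markers were split, with 5 lower in mean and a median log2 fold change of -0.09. Krt8 was higher without overlap (0.54), Krt7 (-1.73) and Cldn4 (-1.11) were lower without overlap, and Krt19 was at -4.01 with control 3 the highest. Neutrophil markers summed to 31.0 to 55.3 in the controls, to 11.4 in DMHCA 1+3 and to 215 in DMHCA 2, of which S100a8 alone was 199. S100a9 (-1.47) was lower without overlap, Cxcr2 was at -1.42 and Csf3r at -0.14, and Ly6g was at 0 TPM in control 1 and in all 3 DMHCA libraries and did not pass the filter. The plasma cell sum of 463 to 856 was mostly Xbp1, at a mean of 585 TPM, while Jchain (-4.25) and Mzb1 (-5.48) were highest in control 3, as the B cell markers were. Xbp1 itself was at 0.02, and Sdc1 was at -0.98 and lowest in control 3. The following sums overlapped between groups and ran over 507 to 723 for macrophages, 328 to 1288 for fibroblasts, 42.7 to 64.3 for endothelial cells and 247 to 1021 for skeletal muscle. Of the 5 skeletal muscle markers, 4 were highest in control 2 and 0 in control 3. The fibroblast sum was highest in control 3, as were 4 of its 6 markers, among them Dcn, at 34166 normalized counts in control 3 and 2637 to 7203 in the other samples. Col1a1 and Col1a2 were highest in control 1, at log2 fold changes of 0.29 and -0.05. Of the 5 endothelial markers 3 were lower in mean, with a median log2 fold change of -0.09, and Cdh5 alone was without overlap (0.81, adjusted p = 0.644).

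Leaving out each sample gave the following. Without control 3 the median log2 fold change of the 56 was 0.36, with 26 genes above both remaining controls (18.1% of all genes), 48 fitted above 0 and 6 at an unadjusted p under 0.05, all higher (2.16% of all genes in that fit were higher and 3.27% lower). Without control 2 the median was 1.02, with 48 genes above both remaining controls (21.3% of all genes) and 32 higher and 2 lower at an unadjusted p under 0.05 (2.91% of all genes in that fit were higher and 6.48% lower). Without control 1 it was 0.60, without DMHCA 2 it was 0.57 and without DMHCA 1+3 it was 0.66. With 1 DMHCA sample left, it is assumed to vary like the controls. The number of genes with adjusted p under 0.05 was 0 in each of these fits.

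**Figure D2:**
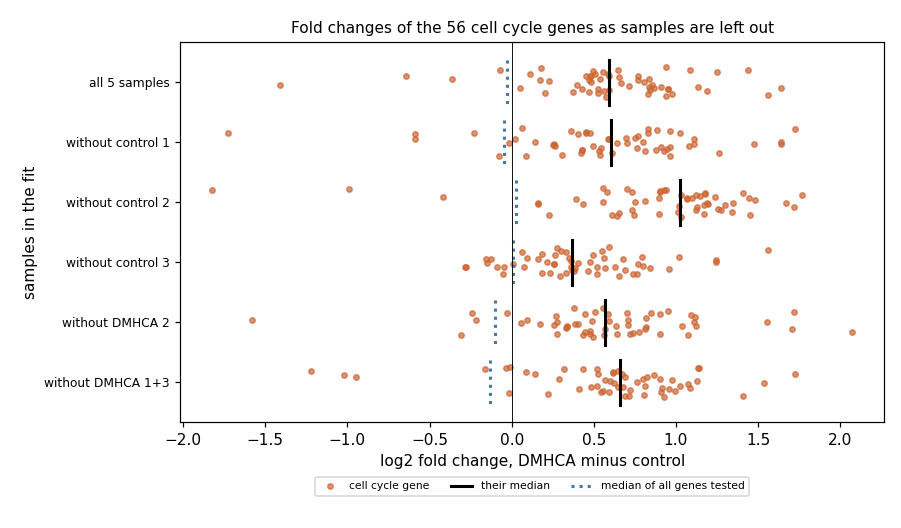
Points are the fitted log2 fold changes (DMHCA minus control) of the 56 genes with all 5 samples and with each sample left out. Black bars mark their median, which runs from 0.36 without control 3 to 1.02 without control 2, and blue dotted bars the median of all genes tested.

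Under DESeq2 on the 6 libraries, which counts the near copies as separate samples, Mki67, Stil and Plk1 had an adjusted p under 0.05, at 0.00197, 0.000449 and 0.00909, and were higher. Of all genes, 1.29% were higher under this fit. With DESeq2 on the 5 samples only Stil passed (adjusted p = 0.0326), with 1.22% of all genes called in either direction.

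The proliferation markers both had higher means and no overlap, where 13.8% of all genes were higher without overlap. Mki67 codes for the Ki-67 antigen, which coats mitotic chromosomes and is used in pathology to count dividing cells (chromosome 7, 135689784 to 135716361, minus strand, GRCm38). Its normalized counts were 10270, 8218 and 5879 in controls 1 to 3, and 25870 and 18076 in DMHCA 1+3 and DMHCA 2. The lower DMHCA sample was above the highest control. The log2 fold change was 1.44 (SE 0.345, unadjusted p = 0.00489, adjusted p = 0.644), and it lay between 1.14 and 1.71 as each sample was left out. Top2a, the topoisomerase that untangles replicated DNA, gave 7085, 9832 and 4333 in the controls and 10134 and 11171 in the DMHCA samples. Its DMHCA values stood just above control 2, and the log2 fold change was 0.59 (SE 0.377, adjusted p = 0.683), or 0.33 without control 3 and 0.90 without control 2. Gm23451 overlaps its exons on the same strand.

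Of the G1 and S phase genes, 6 of 8 had higher means, with a median log2 fold change of 0.48. Cyclin D1 (Ccnd1), the D-cyclin downstream of ErbB2, gave 27399, 16933 and 7038 in the controls and 22751 and 27902 in DMHCA samples. Control 1 was as high as the DMHCA samples, so that the groups overlapped (log2 fold change 0.56, SE 0.547, adjusted p = 0.768). It was 0.19 without control 3 and 1.08 without control 1. Its exons share a stretch with LTO1 on the other strand, and since the strand setting of the counting is not stated, reads of the 2 cannot be told apart. Cdk4, the kinase partner of the D-cyclins, read 9965, 14097 and 7359 in the controls against 13469 and 15521. Its log2 fold change was 0.47 (SE 0.345, adjusted p = 0.716), or 0.27 without control 3 and 0.74 without control 2. Cdk4 was the most abundant of the 56 genes per length, at a mean of 243 TPM over the 5 samples, and Tspan31 lies opposite it. Ccne1, the E-type cyclin that acts with Cdk2, had 401, 320 and 206 in controls and 563 and 904 in DMHCA samples. Here the groups did not overlap and the log2 fold change was 1.25 (SE 0.449, unadjusted p = 0.0291, adjusted p = 0.644). Ccnd2 had the lowest log2 fold change of the 56, at -1.41 (SE 0.777, adjusted p = 0.66). Its controls were 1032, 636 and 3844, so that control 3, where the lymphoid markers were high, was far above the DMHCA values of 593 and 789, while control 2 lay between them. The part of lymphoid cells in this was not tested, and 9330179D12Rik and Gm43126 lie opposite the gene. Ccnd3 was at -0.07 and Ccne2, Cdk2 and Cdk6 at 0.43 to 0.50.

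All 7 mitotic cyclin, Cdk1 and Cdc25 genes had higher means, with a median log2 fold change of 0.54. Groups without overlap were found for 1 of the 7, Cdc25b, a share near the 13.8% of all genes. Cdk1, the kinase that starts mitosis, gave 3246, 6932 and 1952 in controls and 4765 and 5870 in DMHCA samples. Ccnb1, its cyclin partner, read 1696, 4336 and 1407 against 3742 and 4119. In both genes control 2 exceeded both DMHCA samples, and controls 1 and 3 were below them. The log2 fold changes were 0.40 (SE 0.517, adjusted p = 0.827) for Cdk1 and 0.66 (SE 0.498, adjusted p = 0.719) for Ccnb1. Without control 3 they were 0.06 and 0.38, and without control 2 they were 1.03 and 1.34. Cdc25b, a phosphatase that activates Cdk1, was at 941, 1097 and 674 in controls and 1915 and 1550 in DMHCA samples. That gave a log2 fold change of 0.94 (SE 0.314, unadjusted p = 0.022, adjusted p = 0.644), and exons of Spef1 lie opposite it. The other members, Ccna2, Ccnb2, Cdc25a and Cdc25c, were at 0.17 to 0.59.

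**Figure D3:**
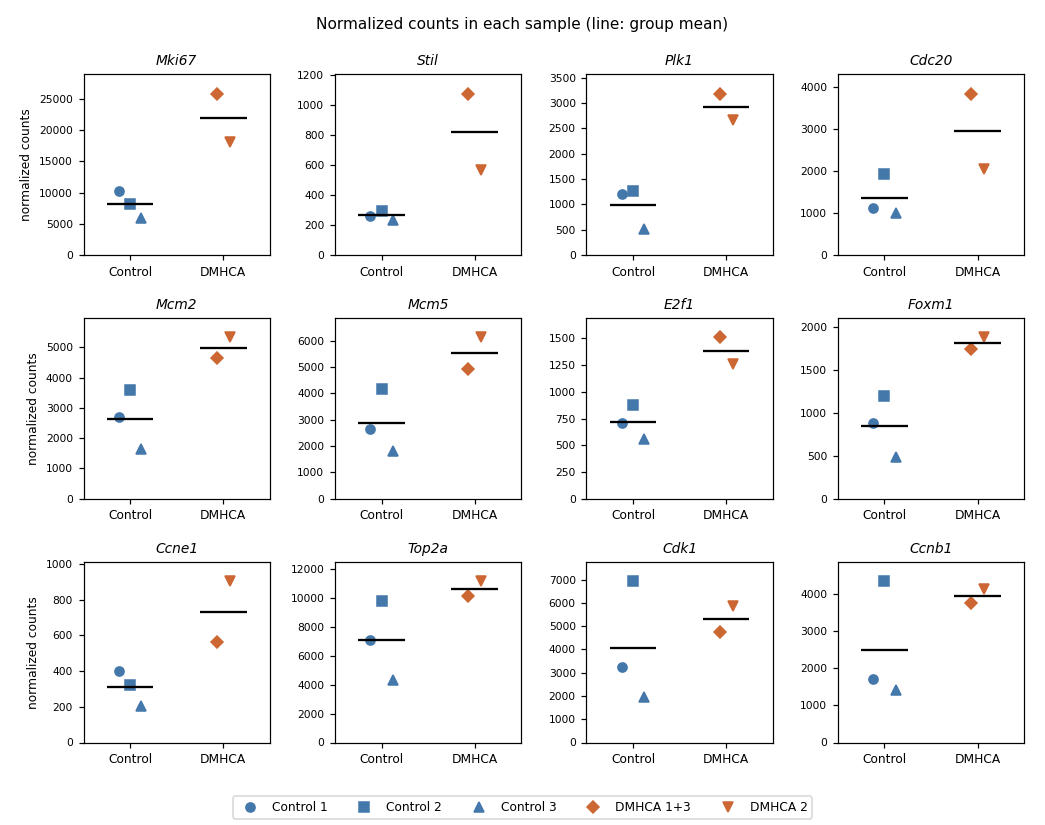
Normalized counts of 12 genes in the 3 control samples (blue) and 2 DMHCA samples (orange), each panel starting at 0, with a line at each group mean. In Mki67, Stil and Plk1 the DMHCA samples stand above all controls. In Cdk1 and Ccnb1 control 2 is the highest sample.

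The 12 replication genes all had higher means, with a median log2 fold change of 0.81 and 6 without overlap, against 13.8% of all genes higher without overlap. Mcm2 codes for a subunit of the helicase that unwinds DNA at origins. It was at 2717, 3605 and 1629 in the controls and 4639 and 5332 in DMHCA samples (log2 fold change 0.91, SE 0.359, unadjusted p = 0.041). Mcm5, another subunit of that ring, gave 2662, 4160 and 1820 against 4927 and 6126 (0.94, SE 0.376, unadjusted p = 0.0432). DMHCA 2 was the higher DMHCA sample for both. Cdc6 and Cdt1 load the ring onto DNA, and Cdc6 was at 597, 816 and 390 against 1032 and 1329, for 0.97 (SE 0.396, unadjusted p = 0.0457). Cdt1 varied little among controls, at 615, 768 and 682, and was at 1179 and 1309 with DMHCA, for 0.85 (SE 0.289, unadjusted p = 0.0228). All 4 had an adjusted p of 0.644. Pcna, the clamp that holds the DNA polymerase, is an abundant gene, at a mean of 234 TPM, and was at 10518, 17109 and 8144 against 13861 and 14036. Control 2 was above both DMHCA samples, and the log2 fold change was 0.23 (SE 0.373, adjusted p = 0.866), or 0.01 without control 3 and 0.58 without control 2. Rrm2, a subunit of ribonucleotide reductase, had the largest fitted value among these, 1.19, but its DMHCA samples were far apart, at 4216 and 11485, and its controls were 3782, 5392 and 1143. All 12 genes were higher in DMHCA 2 than in DMHCA 1+3, by a median of 0.32 on the log2 scale, while 49.1% of all genes tested were higher in DMHCA 2. With 1 sample on each side, this is a description without a test.

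Of the transcription factors, 3 of 4 had higher means. E2f1, which turns on genes for S phase, gave 712, 879 and 555 in the controls and 1510 and 1258 in DMHCA samples. FoxM1 (Foxm1), the factor for genes of mitosis, was at 878, 1195 and 484 against 1744 and 1879. Neither gene overlapped between groups, with log2 fold changes of 0.95 (SE 0.321, unadjusted p = 0.0227) and 1.09 (SE 0.406, unadjusted p = 0.0335) and an adjusted p of 0.644 each. Exons of Gm44596 and Tex52 share the strand of Foxm1. Mybl2 was at 0.84 (SE 0.58, adjusted p = 0.7), and E2f2 at -0.36, with control 3 the highest of its samples at 558. Its mean of 2.42 TPM was the lowest of the 56.

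All 10 mitotic kinase and checkpoint genes had higher means, with a median log2 fold change of 0.78. Control 3 was the lowest sample for all 10, against 26.0% of all genes tested. Plk1, the Polo-like kinase that drives mitotic entry and spindle assembly (chromosome 7, 122159439 to 122169873), was at 1202, 1260 and 510 in the controls and 3185 and 2655 in DMHCA samples. Controls 1 and 2 were nearly equal, and both DMHCA samples were above all controls. The log2 fold change was 1.56 (SE 0.418, unadjusted p = 0.00823, adjusted p = 0.644), and 1.24 to 1.77 as samples were left out. Gm44985 lies opposite Plk1. Stil, a centriole duplication factor (chromosome 4, 115000159 to 115043196), was low in level, at a mean of 2.48 TPM. It had little spread among the controls, at 263, 292 and 236 normalized counts, against 1078 and 565 in the DMHCA samples. Its log2 fold change of 1.64 (SE 0.418, unadjusted p = 0.00653, adjusted p = 0.644) was the largest of the 56 and ran from 1.09 to 2.07 as samples were left out, and the lowest came without DMHCA 1+3. Cdc20, the activator of the anaphase-promoting complex, gave 1122, 1918 and 994 against 3847 and 2054. The DMHCA samples differed by far more than DMHCA 2 did from control 2, and the log2 fold change was 1.13 (SE 0.407, unadjusted p = 0.0288, adjusted p = 0.644), or 0.60 without DMHCA 1+3 and 1.56 without DMHCA 2. Elovl1 lies opposite Cdc20. Aurkb, the Aurora kinase of the chromosomal passenger complex, was at 829, 1305 and 445 against 1400 and 1425, for 0.72 (SE 0.46, adjusted p = 0.683), or 0.40 without control 3 and 1.15 without control 2. Birc5 (survivin), a partner of Aurora B in that complex, had the highest level of the role, at a mean of 56.5 TPM. Its counts were 1245, 2990 and 1054 in the controls and 2416 and 2401 in the DMHCA samples, and control 2 was above both. The log2 fold change of 0.45 (SE 0.473, adjusted p = 0.786) was 0.18 without control 3 and 1.07 without control 2. The other 5, Plk4, Bub1, Bub1b, Mad2l1 and Ttk, were at 0.11 to 0.95.

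All 8 centromere and spindle motor genes had higher means, with log2 fold changes of 0.20 to 0.84 and a median of 0.71, and 0 passed an unadjusted p of 0.05. Cenpa, the histone variant that marks the centromere, was the most abundant, at 58.4 TPM. It was at 1900, 3419 and 1455 normalized counts in controls and 2993 and 3265 in DMHCA samples. Control 2 was above both, and the log2 fold change was 0.47 (SE 0.388, adjusted p = 0.739), or 0.23 without control 3 and 0.90 without control 2. In Cenpe, Cenpf, Kif11, Kif2c and Tpx2 the groups did not overlap, where 13.8% of all genes were higher without overlap. Control 3 was the lowest for all 8, against 26.0% of all genes tested.

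**Figure D4:**
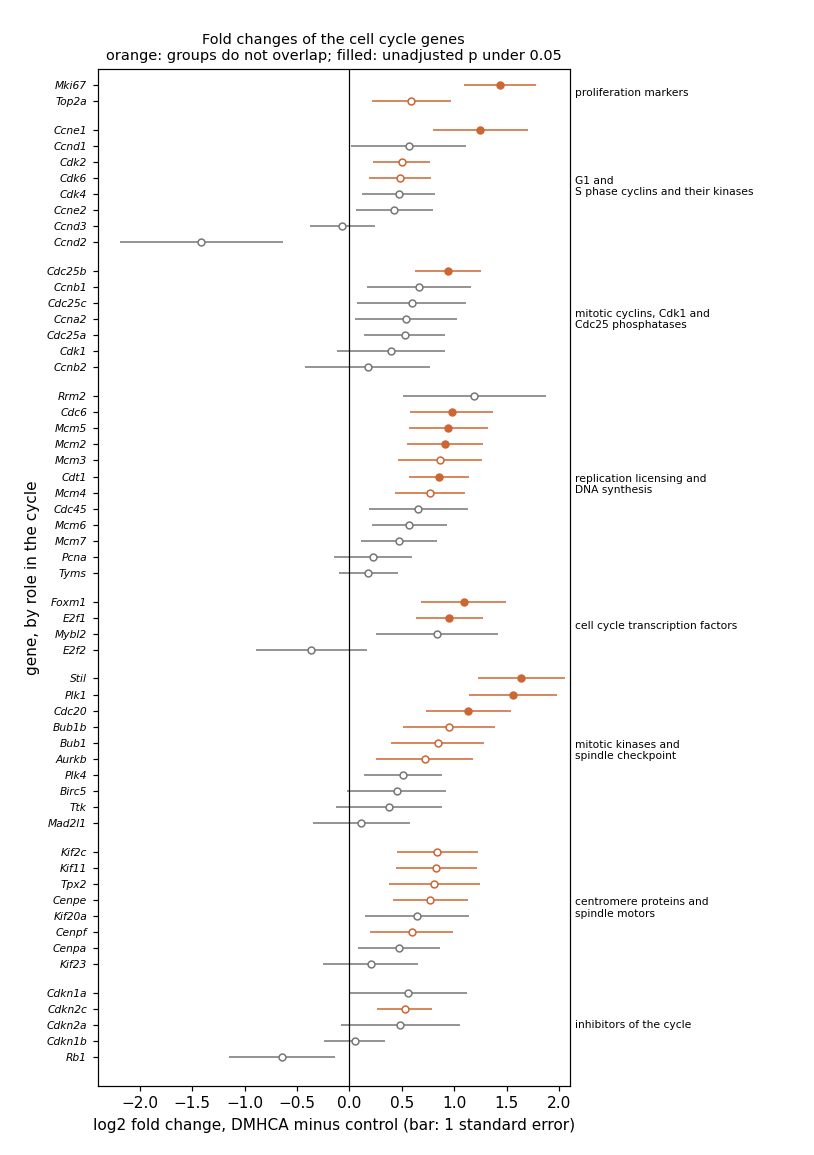
Fitted log2 fold changes (DMHCA minus control, bars 1 standard error) of the 56 genes by role. Orange marks the 26 genes whose DMHCA samples lie above all controls, filled points the 12 with an unadjusted p under 0.05. The 4 genes below 0 are Ccnd2, Ccnd3, E2f2 and Rb1.

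Of the 5 inhibitors, 4 had higher means and 1 had groups without overlap, a share near the 13.8% of all genes higher without overlap. Cdkn1a, which codes for p21, a p53 target that blocks cyclin kinases, was at 6294, 5539 and 1666 in controls and 4956 and 8294 in DMHCA samples. Controls 1 and 2 were above DMHCA 1+3 and control 3 was the lowest sample, at a log2 fold change of 0.56 (SE 0.564, adjusted p = 0.778), and AC167363.2 lies opposite it. The fold change of Cdkn1a was 0.16 without control 3 and 0.88 without control 1. Cdkn2a, the gene of p16Ink4a and p19Arf, was at 864, 251 and 394 against 595 and 812, with control 1 the highest, for 0.48 (SE 0.568, adjusted p = 0.806), or 0.16 without control 2 and 1.11 without control 1. Rb1, the retinoblastoma protein that holds E2F factors, was at 3168, 1321 and 4197 against 2267 and 1438. It was lower on average by a log2 fold change of -0.64 (SE 0.506, adjusted p = 0.728), with control 2 as low as DMHCA 2, and Lpar6 and Rcbtb2 overlap its exons on the other strand. The value was -0.28 without control 3 and -1.02 without DMHCA 1+3. Cdkn2c (p18) was the only inhibitor without overlap, at 0.53 (SE 0.262, adjusted p = 0.644), and Cdkn1b (p27) was at 0.05 (SE 0.287, adjusted p = 0.968).

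Levels of the 56 genes, per length, ran from 2.42 TPM (E2f2) to 243 TPM (Cdk4) around a median of 20.7 TPM. Above 100 TPM on average were 4 genes, Cdk4, Pcna, Ccnd1 and Cdk1, and under 5 TPM were 3, E2f2, Stil and Cdk6. On the log2(TPM + 1) scale with limma the median log2 difference was 0.90, 40 genes were higher without overlap (20.3% of all genes) and 0 passed an adjusted p of 0.05. The median of all genes was 0.11 on that scale. Of 56 genes, 19 overlap another gene in exons, 17 of them on the other strand. The 37 without such overlap had a median of 0.72 in the main edgeR fit. Of these 37, 19 were higher without overlap between groups, against 13.8% of all genes tested.

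**Figure D5:**
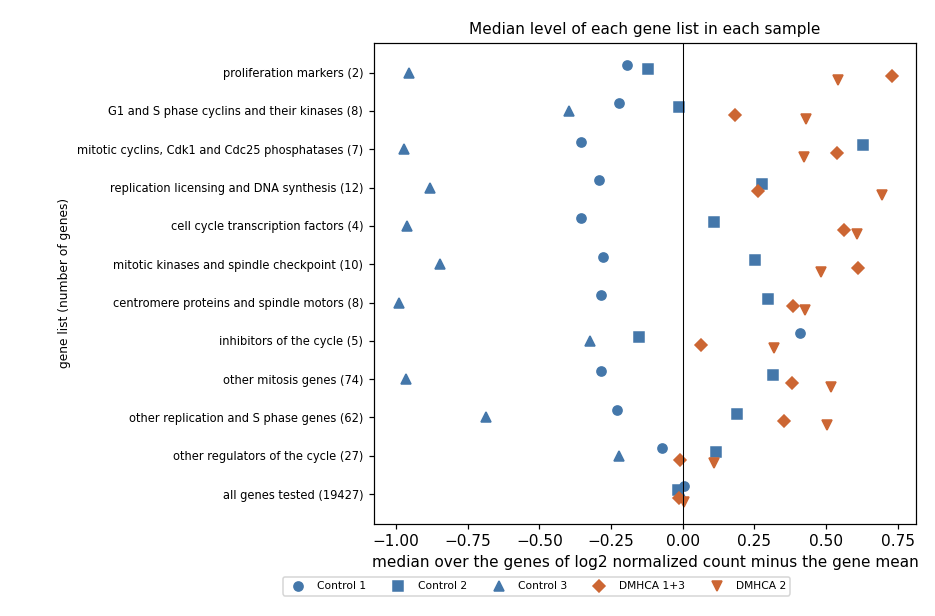
For each list, the median over its genes of log2 normalized count relative to the gene's mean, by sample. For the mitotic cyclin list control 2 (0.63) is above DMHCA 1+3 (0.54) and DMHCA 2 (0.42), and for all genes tested every sample is near 0.

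Genes of the same processes that are not among the 56 were counted in the same way. Of 163 other cell cycle genes, 144 had higher means and 0 passed the adjusted test, 28 had an unadjusted p under 0.05 and were higher, and 0 lower (3.53% and 4.08% of all genes), with a median log2 fold change of 0.56. DESeq2 on the 6 libraries gave an adjusted p under 0.05 for 11 of them, all higher (1.29% of all genes were) and 7 of them among the replication genes, and DESeq2 on the 5 samples for 1, Rrm1. The 74 other mitosis genes had a median of 0.65, the 62 other replication genes 0.58 and the 27 other regulators 0.12. Control 3 was the lowest sample for 126 of the 163, against 26.0% of all genes tested. The smallest p of the higher ones belonged to Rrm1, Lig1 and Wee1. Rrm1, the large subunit of ribonucleotide reductase, was at 4927, 3911 and 3249 in the controls and 10209 and 9296 in DMHCA samples (log2 fold change 1.28, SE 0.276, unadjusted p = 0.00285). Lig1, a DNA ligase, was at 2183, 1643 and 1289 against 4034 and 4514 (1.33, SE 0.29), with Zswim9 opposite it. Wee1, the kinase that holds back Cdk1, was at 1848, 1104 and 1158 against 3394 and 3794 (1.39, SE 0.306). All 3 had DMHCA values more than the highest control, and an adjusted p of 0.644. Aurka, the Aurora kinase of spindle poles, was at 1111, 1885 and 614 against 2163 and 6853. One DMHCA sample stood far above the other, and the log2 fold change was 1.90 (SE 0.608, unadjusted p = 0.0179).

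Genes with a lower mean and the smallest p in these lists were Cdkn2b, Pmaip1 and Fas, of which Pmaip1 and Fas are in the p53 target list. Cdkn2b (p15), a Cdk4 and Cdk6 inhibitor, was at 1254, 772 and 555 in the controls and 296 and 533 in DMHCA samples, at -1.06 (SE 0.496, unadjusted p = 0.0735, adjusted p = 0.644). Pmaip1, which codes for the pro-death protein Noxa, was at 348, 288 and 514 against 223 and 153. Both were without overlap. Fas, the death receptor, was at 276, 112 and 840 against 160 and 67.8, so that the groups overlapped, and control 3 was far above the others. Of the 20 p53 target genes, 11 had higher and 9 lower means, with a median of 0.02. The 20 include Cdkn1a, given above among the inhibitors, and Gtse1, also counted among the other mitosis genes. In edgeR 0 of the 20 had an unadjusted p under 0.05, and 0 passed the adjusted test there or in DESeq2 on 6 libraries.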

How the data were processed

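RNA of 6 libraries was sequenced. Per the labels, the authors used FastQC 0.11.9, cutadapt 2.9, Bowtie2 2.4.1 and RSEM 1.3.1 on mm10. The strand setting is not given in the sources used here. The deposited files hold RSEM expected counts per gene (estimated, not normalized), TPM (summing to the same total in each library) and FPKM (not used). The members and gene lists were chosen with earlier results of these data known.

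Expected counts were rounded. DMHCA libraries 1 and 3 were summed. Counts were tested with edgeR 4.0.16 in R 4.3.3 (TMM, filterByExpr with a minimum count of 10 and total of 15, quasi-likelihood F-test, Benjamini-Hochberg over all genes tested). DESeq2 1.42.0 and limma 3.58.1 (log2(TPM + 1), pseudocount 1) were alternatives. Each SE was derived from the F statistic (the fitted log2 value over the root of F). Fits were tested on simulated counts with changes larger than any fitted for the 56 genes with all 5 samples. Whether changes of the size seen here would be called was not tested. Gene coordinates are from GENCODE M21 (GRCm38) and promoters from RefSeq. Depth was 46358654 to 63420620 counts, and the part of counting error in the spread between samples was not computed. Named genes were 16 set members, members with an unadjusted p under 0.05, the most abundant member of each role and, of other lists, the 3 smallest p in each direction and Aurka. Correlations of deviations of same-numbered libraries were -0.0585, 0.342 and 0.359. With DMHCA 1 and 3 near copies, these values cannot show whether the numbers pair samples. The main fit did not pair them.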

Additional observations from a re-analysis of the deposited data

How the results depend on the processing

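The number of genes called was 0 of 19427 with edgeR, 16 without a filter on low counts, 244 with DESeq2 on 5 samples and 846 with DESeq2 on 6 libraries, and among the 56 genes it was 1 with DESeq2 on 5 samples and 3 with DESeq2 on 6 libraries. Genes higher without overlap were 26 of 56 (13.8% of all genes), 40 on the log2(TPM + 1) scale (20.3%), and 25 to 48 as a library or the summed pair was left out (13.1% to 26.8%, since fewer samples overlap less often). Genes lower without overlap were 0 to 2 in those fits. With the replicate number as a block on the 6 libraries, the count of members called was 0, the median 0.67 and the count without overlap 25, and the block changed no call. Over 17 settings the 24 named members gave 408 values, of which 404 were on the same side of the threshold as reported, 4 passed it and 0 changed sign. These counts only describe refits of the same libraries. All 24 had an adjusted p of 0.644 or more in the main fit, and 12 were named for an unadjusted p under 0.05. Over all 56 genes, 52 were fitted above 0 with all 5 samples, 48 without control 3 and 53 without control 2. Mad2l1 was at 0.11 in the main fit and at -0.0086 with DESeq2 on 6 libraries. The cause of the differences between tools was not tested. Counting error was not set against the spread between samples gene by gene.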
